A study of Mus musculus with 9 samples.

Results

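The 29 genes described here encode the machinery of sterol synthesis, uptake and control. They hold 19 synthesis enzymes, 5 genes of feedback control and lipoprotein uptake, 3 genes of sterol transport inside the cell and 2 sterol exporters. The 19 enzymes run from the thiolase Acat2 to the last steps to cholesterol. They include Ggps1, whose product leaves the sterol route. They were chosen by name, with earlier results of these data known, and all 29 are among the 54532 genes of the deposited table. Of these 29, 27 were among the 13915 genes with enough counts to be tested, and the exporters Abca1 and Abcg1 were not. RNA came from 4T1 cells, a mouse mammary carcinoma line grown in DMEM with serum, which the study takes as triple-negative breast cancer cells. The cells received Au/Cu-TCPP(Fe)-PEG (Au_TCPP), Cu-TCPP(Fe)-PEG (Cu_TCPP) or medium alone (Control), with 3 libraries per group. The gold-bearing material thus also carries the copper compound by name. The study's title describes the materials as depleting glutathione (GSH) and as acting like a glucose oxidase. The design text gives 24 h beside the gold-bearing material, and the sources used here do not state doses. The labels do not say whether the libraries of a group are separate cultures, and the p-values cover no more than the spread between these libraries, which may be technical.

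Animal cells build cholesterol from acetyl-CoA by way of mevalonate, isoprenoid diphosphates, squalene and lanosterol. The transcription factor SREBP2, the product of Srebf2, turns on genes of this route. When sterol in the endoplasmic reticulum is scarce, Scap carries SREBP2 to the Golgi for cleavage. When sterol is plentiful, the Insig proteins hold Scap back, and Insig1 is itself a target of SREBP2. Oxysterols act in the opposite sense through the nuclear receptor LXR, which raises the exporters Abca1 and Abcg1 and the ubiquitin ligase Mylip. Carcinoma lines in culture draw on both synthesis and serum lipoprotein for their sterol.

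SREBP2 binds sterol regulatory elements that often lie near boxes for NF-Y and Sp1, so the promoters of 6 genes whose levels carry the results below are shown. They are RefSeq windows on GRCm38.p6, from 250 bases before to 50 after the RefSeq start of the gene, given 5′ to 3′ on the gene's strand. Of the 6 genes, Mylip alone has the same start in RefSeq as the counted gene. The counted Msmo1 gene begins at base 64733792, so most of its window, with its NF-Y boxes, lies inside the counted gene. Capitals mark the sterol regulatory element TCACNCCAC and the NF-Y box CCAAT or its reverse complement ATTGG. The genes are the early enzyme Hmgcs1 (chr13:119690101-119690400, plus strand), the cyclase Lss (chr10:76531355-76531654, plus strand) and the late enzymes Hsd17b7 (chr1:169969156-169969455, minus strand) and Msmo1 (chr8:64733529-64733828, minus strand). With them stand the feedback gene Insig1 (chr5:28071162-28071461, plus strand) and the LXR target Mylip (chr13:45389492-45389791, plus strand).
Hmgcs1: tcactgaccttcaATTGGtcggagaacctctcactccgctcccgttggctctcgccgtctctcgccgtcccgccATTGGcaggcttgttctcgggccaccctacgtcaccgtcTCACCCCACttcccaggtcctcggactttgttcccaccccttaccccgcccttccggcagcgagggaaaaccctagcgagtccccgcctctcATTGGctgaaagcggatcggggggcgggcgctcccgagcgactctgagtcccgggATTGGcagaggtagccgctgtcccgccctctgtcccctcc
Lss: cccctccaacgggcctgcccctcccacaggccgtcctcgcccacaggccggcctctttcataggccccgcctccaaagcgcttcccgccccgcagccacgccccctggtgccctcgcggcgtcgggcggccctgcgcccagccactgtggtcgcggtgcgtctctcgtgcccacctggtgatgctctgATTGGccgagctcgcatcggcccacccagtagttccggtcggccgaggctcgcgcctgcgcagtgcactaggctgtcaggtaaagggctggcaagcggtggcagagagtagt
Hsd17b7: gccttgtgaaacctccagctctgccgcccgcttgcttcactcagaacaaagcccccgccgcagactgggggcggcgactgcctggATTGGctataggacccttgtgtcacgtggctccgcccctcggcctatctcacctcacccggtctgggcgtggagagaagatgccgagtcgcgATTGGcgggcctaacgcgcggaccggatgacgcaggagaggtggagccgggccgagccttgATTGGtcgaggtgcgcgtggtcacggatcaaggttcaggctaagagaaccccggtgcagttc
Msmo1: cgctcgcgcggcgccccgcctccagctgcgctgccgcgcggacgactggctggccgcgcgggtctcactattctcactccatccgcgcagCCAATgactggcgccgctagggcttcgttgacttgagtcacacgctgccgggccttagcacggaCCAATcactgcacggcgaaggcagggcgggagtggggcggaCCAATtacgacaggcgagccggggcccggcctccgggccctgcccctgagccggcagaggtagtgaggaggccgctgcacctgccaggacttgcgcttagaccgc
Insig1: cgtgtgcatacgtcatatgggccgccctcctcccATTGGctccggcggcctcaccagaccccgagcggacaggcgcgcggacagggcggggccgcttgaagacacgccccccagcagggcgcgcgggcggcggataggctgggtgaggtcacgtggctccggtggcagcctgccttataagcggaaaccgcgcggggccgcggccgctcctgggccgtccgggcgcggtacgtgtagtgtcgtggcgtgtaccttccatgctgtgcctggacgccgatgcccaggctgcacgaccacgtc
Mylip: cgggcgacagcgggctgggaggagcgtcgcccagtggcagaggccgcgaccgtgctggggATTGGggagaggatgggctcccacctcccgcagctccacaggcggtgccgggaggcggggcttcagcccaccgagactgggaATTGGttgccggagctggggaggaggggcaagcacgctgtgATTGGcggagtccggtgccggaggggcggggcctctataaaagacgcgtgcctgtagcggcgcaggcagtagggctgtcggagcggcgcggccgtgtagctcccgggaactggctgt

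Of the 29 genes, 23 had such a window, some with more than 1 window. Fdps, Fdft1, Sqle, Stard4, Npc1 and Abcg1 had none. A gene was counted as holding a motif where any of its windows held it. The NF-Y box, searched on both strands, was held by 20 of the 23 genes (87.0%) and by 41.1% of the 27025 genes with a window. The Sp1 box GGGCGG was held by 21 (91.3%), against 38.2% of all genes with a window. The E-box CACGTG was held by 6 (26.1%), against 8.09%. The element TCACNCCAC was in the window of Hmgcs1 alone, from base -137 to -129 as TCACCCCAC, and was held by 1.44% of all genes with a window. The LXR direct repeat, AGGTCA and again AGGTCA with 4 free bases between, was held by none of the 23 genes and by 0.0148% of all genes with a window. No 2 of these motifs overlapped in any of the 6 printed windows. Such a match is a string of letters, not a site shown to be bound. Other forms of each motif were not searched, so a window without a match may still hold one. The printed windows of Lss, Msmo1 and Mylip, whose RNA levels follow different patterns across the groups, all hold the NF-Y box, with 1 copy in Lss and 3 each in Msmo1 and Mylip.

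Levels are given as CPM, that is, counts relative to each library's effective total, in the order of replicates 1, 2 and 3. A gene is called where its adjusted p from edgeR's quasi-likelihood test, over all 13915 genes, is under 0.05. Log2 fold changes are given ± their standard error, and gene coordinates are on mm10. Library totals lay between 15477324 and 17494776 counts. Ribosomal protein genes took 10.0 to 10.9% of counts in Au_TCPP, 5.86 to 6.13% in Cu_TCPP and 6.13 to 6.475% in Control. Weighted by counts, the mean gene length was 4549 to 4669 nt in Au_TCPP, 5601 to 5720 nt in Cu_TCPP and 5632 to 5754 nt in Control. Mitochondrially encoded genes took 2.37% of counts in Au_TCPP replicate 2 and 1.09 to 1.47% in the other 8 libraries. All 6 epithelial markers were tested, with summed levels of 4407 to 5327 CPM in Au_TCPP, 2847 to 3182 CPM in Cu_TCPP and 2926 to 3184 CPM in Control. Of 5 macrophage markers 2 were tested, Cd68 and Cd14. Ptprc and Csf1r had at most 3 counts in any library and Adgre1 had none. The summed level of the 5 markers, almost wholly that of Cd68 and Cd14, was 71.7 to 96.15 CPM in Au_TCPP, 21.0 to 24.65 CPM in Cu_TCPP and 37.9 to 41.4 CPM in Control. The fibroblast, endothelial, lymphocyte and steroid- or bile-producing markers each summed to at most 45.7 CPM in any library. In such bulk RNA, fewer cells of a type and less RNA per cell cannot be told apart.

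Together the 29 genes took 0.256, 0.209 and 0.238% of all counts in Au_TCPP, 0.311, 0.311 and 0.310% in Cu_TCPP and 0.2955, 0.292 and 0.305% in Control. Per kilobase of gene length, the highest level in every group was that of Npc2, which encodes a lysosomal cholesterol-binding protein. It had 179.6 ± 21.9 CPM per kb in Au_TCPP, 73.45 ± 5.74 in Cu_TCPP and 85.7 ± 3.53 in Control (SD, n = 3 each). Insig1 came next in Au_TCPP and Control. It had 80.9 ± 25.3 CPM per kb in Au_TCPP, 40.4 ± 2.19 in Cu_TCPP and 66.7 ± 1.85 in Control, while Srebf2 had 21.5 ± 4.36 CPM per kb in Au_TCPP, 54.3 ± 3.23 in Cu_TCPP and 55.5 ± 0.747 in Control. The lowest of the 27 tested genes in Au_TCPP and Control was Tm7sf2, a sterol reductase, with 1.30 ± 0.310 CPM per kb in Au_TCPP, 2.06 ± 0.213 in Cu_TCPP and 2.43 ± 0.1415 in Control. In Cu_TCPP the lowest was Mylip, at 1.53 ± 0.170 CPM per kb, against 4.40 ± 0.508 in Control. In Control the levels of Tm7sf2 and Fdps (2.47 ± 0.393 CPM per kb), which stand next to each other, did not differ beyond their spread.

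**Figure D1:**
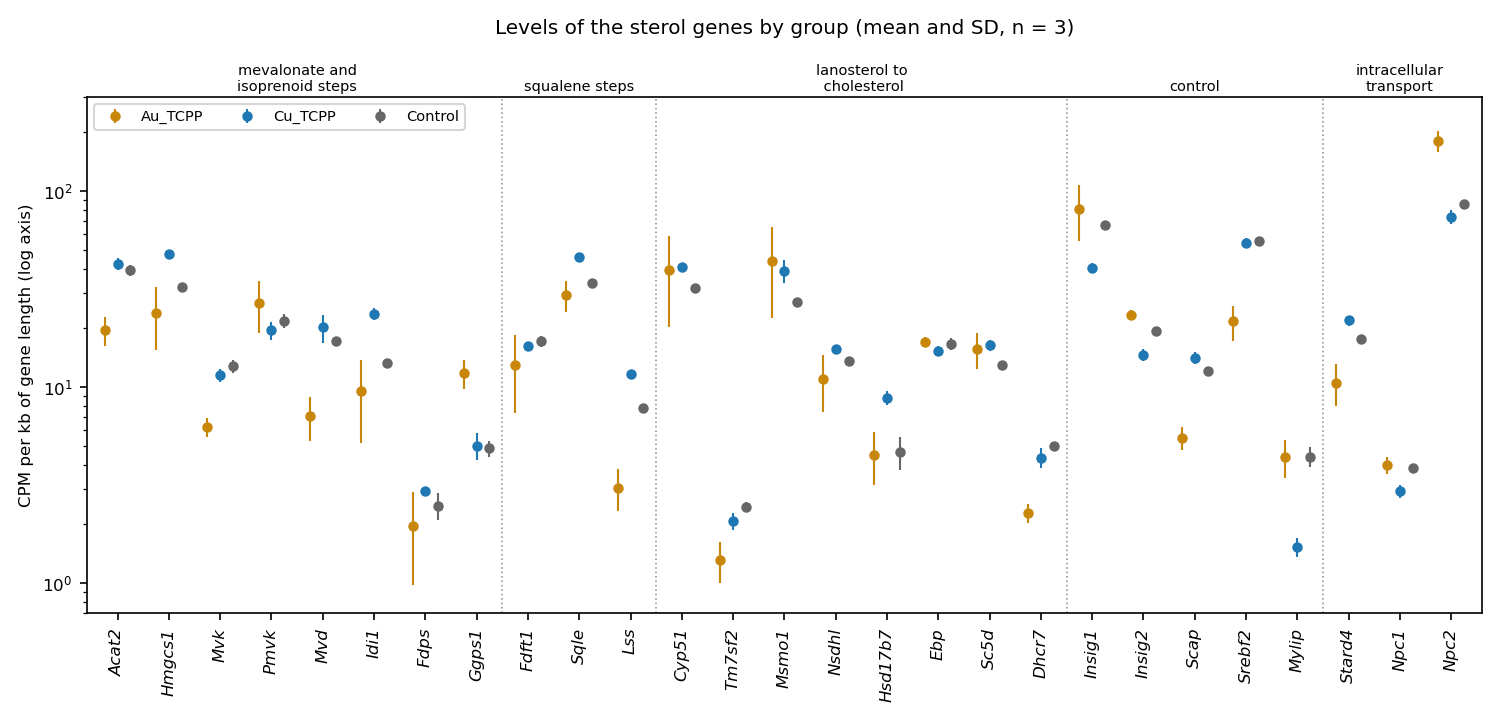
Level of each of the 27 tested sterol genes in CPM per kilobase of gene length (log axis), as mean and SD over 3 libraries of Au_TCPP, Cu_TCPP and Control. Npc2 is the highest in each group and the error bars of Au_TCPP are long for Fdps, Cyp51 and Msmo1.

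The comparison of Au_TCPP with Control asks what the gold-bearing material changed in the cells. The enzyme genes Acat2, Mvk, Mvd, Lss, Tm7sf2 and Dhcr7, the SREBP2 gene Srebf2, its escort Scap and the transport gene Stard4 fell, while Npc2, Ggps1 and Insig2 rose. Of the 27 genes, 3 rose and 9 fell, while 34.4% of all genes tested rose and 34.7% fell (69.1% called in all). The share that fell (33.3%) was close to that of all genes, and the share that rose (11.1%) was lower. The median log2 fold change was -0.31 over the 27 genes and -0.01 over all genes tested. Among the 19 synthesis enzymes 1 rose, Ggps1, and 6 fell, with a median of -0.35. With library totals as the only scale, 2 of the 27 rose and 19 fell, while the median of all genes lay at -0.43, 18.9% of them rose and 51.0% fell. Fold changes here use TMM factors and are relative to that shift. The 27 genes had a median length of 4594 nt, against 3861 nt for all genes tested, and with offsets for gene length 5 of them rose and 9 fell, against 35.7% and 30.4% of all genes. Without Au_TCPP replicate 2, 8 of the 27 rose and 10 fell, against 34.1% and 36.9% of all genes, as described further on.

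The comparison of Cu_TCPP with Control asks what the copper material alone changed. The enzyme genes Idi1, Sqle, Lss, Hsd17b7 and Sc5d rose, and Insig1, Insig2 and Mylip, which restrain synthesis or uptake, fell together with the lysosomal transporter gene Npc1. Of the 27 genes, 5 rose and 4 fell, against 19.2% and 21.2% of all genes tested (40.4% called in all). These shares, 18.5% and 14.8%, lay at or below those of all genes. The median was 0.11 over the 27 genes and -0.01 over all. The 19 synthesis enzymes split otherwise, with 5 risen (26.3%) and 0 fallen and a median of 0.22. Not all of them went up, since the Cu_TCPP libraries of Tm7sf2 (-0.24 ± 0.16) and Dhcr7 (-0.20 ± 0.11) all lay below Control. Those of Hmgcs1, Fdps, Cyp51, Msmo1 and Nsdhl all lay above it, and none of these genes was called. By edgeR 0 of the 19 enzymes fell at an unadjusted p under 0.05 as well, and DESeq2 and limma called 0 lower. In a fit of the 6 libraries of this comparison alone, 11 of the 27 genes rose and 5 fell, against 27.4% and 27% of all genes. Leaving out Au_TCPP replicate 2, which enters this test through the spread that all libraries share, also gave 11 and 5. Without any 1 of the Cu_TCPP or Control libraries 3 rose and 4 fell. The shares of all genes in these leave-out fits are not given here, so their counts are not read as particular to the sterol genes.

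Both materials were also compared with each other, which asks what the gold-bearing one changed beyond the copper one. Of the 27 genes 7 were higher and 14 lower in Au_TCPP than in Cu_TCPP, against 34.6% and 31.3% of all genes (65.9% called in all). The 51.9% that were lower are a larger share than among all genes. Their median was -0.61, against 0.04 for all genes tested. Of the 19 synthesis enzymes 2 were higher, Pmvk and Ggps1, and 11 lower, with a median of -0.65. The higher genes were Pmvk, Ggps1, Insig1, Insig2, Mylip, Npc1 and Npc2. This comparison shares its Au_TCPP and Cu_TCPP libraries with the comparisons against Control, so the 3 sets of values are not independent.

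**Figure D2:**
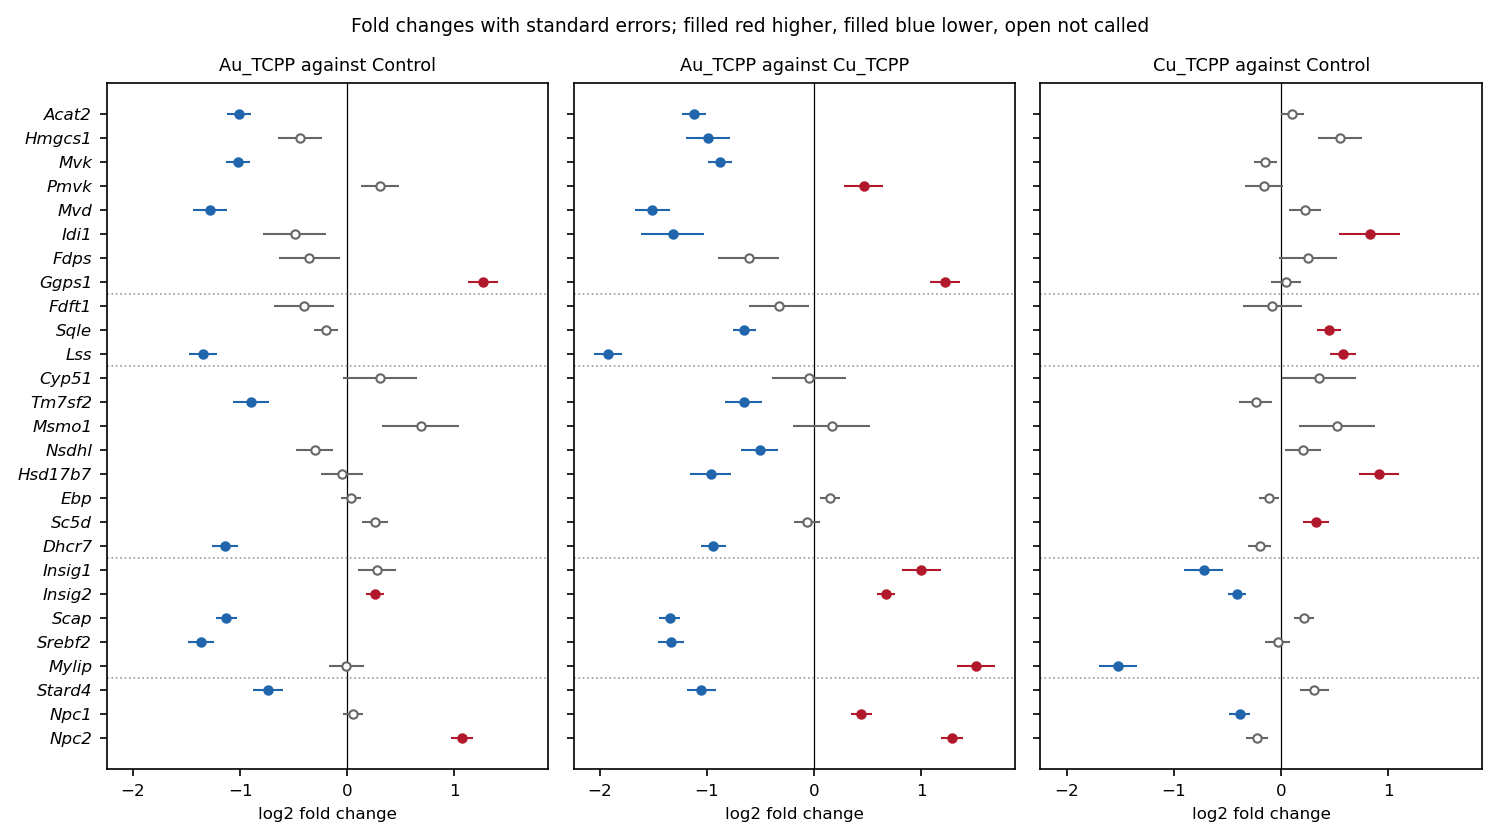
Log2 fold change and standard error of the 27 tested sterol genes for Au_TCPP against Control, Au_TCPP against Cu_TCPP and Cu_TCPP against Control. Filled red points are higher, filled blue points lower and open points not called, and 9 genes are filled blue for Au_TCPP against Control.

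The mevalonate steps begin with Acat2, the cytosolic thiolase that makes acetoacetyl-CoA (chr17:12942890-12960747, minus strand). It had 57.5, 40.7 and 50.2 CPM in Au_TCPP, 103, 103 and 116 CPM in Cu_TCPP and 93.8, 98.4 and 107 CPM in Control. All 3 Au_TCPP libraries lay below the other 6, and the log2 fold change was -1.01 ± 0.11, adjusted p = 1.5e-06 against Control and -1.12 ± 0.11, adjusted p = 6.1e-07 against Cu_TCPP. Hmgcs1 makes HMG-CoA from acetoacetyl-CoA and is a classic SREBP2 target. Of the 23 genes with a promoter window, it alone held the string TCACNCCAC. It had 137, 65.3 and 125 CPM in Au_TCPP, 225, 206 and 220.5 CPM in Cu_TCPP and 152, 142 and 151 CPM in Control. The 3 groups did not overlap, with Cu_TCPP highest, and Au_TCPP replicate 2 lay far below replicates 1 and 3. The difference was called for Au_TCPP against Cu_TCPP (-0.99 ± 0.21, adjusted p = 0.0012) but not for Cu_TCPP against Control (0.55 ± 0.20, adjusted p = 0.05) or Au_TCPP against Control (-0.44 ± 0.21, adjusted p = 0.075). In the fit of 6 libraries alone Hmgcs1 rose with Cu_TCPP by a log2 fold change of 0.56 (adjusted p = 6.9e-07).

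Mvk and Pmvk phosphorylate mevalonate in turn, and Mvd then removes the carboxyl group to give isopentenyl diphosphate. Mvk had 18.5, 14.8 and 16.8 CPM in Au_TCPP, 29.96, 33.4 and 28.7 CPM in Cu_TCPP and 31.1, 34.65 and 36.03 CPM in Control. All Au_TCPP libraries lay below the others, with log2 fold changes of -1.02 ± 0.11, adjusted p = 1.2e-06 against Control and -0.88 ± 0.11, adjusted p = 6.7e-06 against Cu_TCPP. Mvd had 16.04, 9.60 and 13.7 CPM in Au_TCPP, 32.0, 43.95 and 35.9 CPM in Cu_TCPP and 31.9, 30.9 and 32.9 CPM in Control, and it fell 2.44-fold against Control (-1.28 ± 0.16, adjusted p = 4.9e-06) and 2.85-fold against Cu_TCPP (-1.51 ± 0.16, adjusted p = 1e-06). Pmvk, the later of these kinases, had 52.7, 30.1 and 54.85 CPM in Au_TCPP, 30.9, 37.3 and 31.6 CPM in Cu_TCPP and 34.97, 35.7 and 40.85 CPM in Control. Replicates 1 and 3 of Au_TCPP lay above, and replicate 2 below, all Control and Cu_TCPP libraries. The call of Pmvk as higher in Au_TCPP than in Cu_TCPP (0.46 ± 0.18, adjusted p = 0.037) was lost under 15 of 19 alternatives.

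Idi1 isomerizes isopentenyl diphosphate so that chains can start, and Fdps joins the units to farnesyl diphosphate. Idi1 (chr13:8885501-8892451, plus strand) had 39.8, 16.0 and 43.7 CPM in Au_TCPP, 87.5, 76.5 and 83.8 CPM in Cu_TCPP and 48.5, 46.8 and 44.4 CPM in Control. All Cu_TCPP libraries lay above Control and all Au_TCPP libraries below it, with replicate 2 of Au_TCPP the lowest. Idi1 rose 1.77-fold with Cu_TCPP against Control (0.83 ± 0.29, adjusted p = 0.048), and it was lower in Au_TCPP than in Cu_TCPP (-1.32 ± 0.30, adjusted p = 0.0038), while Au_TCPP against Control was not called (-0.49 ± 0.30, adjusted p = 0.17). The call with Cu_TCPP was lost when any 1 Cu_TCPP or Control library was left out, and in 8 of 19 alternatives in all. Fdps had 11.7, 3.71 and 9.06 CPM in Au_TCPP, 12.6, 12.5 and 12.1 CPM in Cu_TCPP and 10.7, 8.62 and 11.9 CPM in Control and was not called in any of the 3 comparisons. Its Au_TCPP replicate 2 was the lowest of the 9 libraries.

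Ggps1 makes geranylgeranyl diphosphate, which leaves the sterol route for the prenylation of proteins (chr13:14050659-14063488, minus strand). It had 58.2, 44.8 and 62.8 CPM in Au_TCPP, 26.2, 19.3 and 25.4 CPM in Cu_TCPP and 23.3, 24.8 and 20.5 CPM in Control. Every Au_TCPP library lay above every library of the other groups. Ggps1 rose 2.41-fold with Au_TCPP against Control (1.27 ± 0.14, adjusted p = 1.4e-06) and 2.34-fold against Cu_TCPP (1.23 ± 0.14, adjusted p = 2.3e-06), and it was the only synthesis enzyme called higher with Au_TCPP against Control in the fit of all 9 libraries. Of its exonic bases 5.4% overlap Arid4b on the opposite strand, and the sources used here do not state whether counting was stranded.

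The squalene steps commit the route to sterol. Fdft1, squalene synthase, had 70.5, 27.8 and 64.5 CPM in Au_TCPP, 64.85, 69.5 and 69.5 CPM in Cu_TCPP and 70.3, 68.2 and 77.2 CPM in Control. Only Au_TCPP replicate 2 stood apart, and no comparison was called. Of the exonic bases of Fdft1 18.3% overlap the protease gene Ctsb on the opposite strand, so its counts are uncertain where strand was not used. Sqle, the oxygen-dependent epoxidase that is a slow step of the route, had 187.5, 131 and 169.7 CPM in Au_TCPP, 257, 252 and 258 CPM in Cu_TCPP and 188, 181.5 and 192 CPM in Control. The Cu_TCPP libraries lay above all others. Sqle rose 1.37-fold with Cu_TCPP against Control (0.45 ± 0.11, adjusted p = 0.0045), and it was lower in Au_TCPP than in Cu_TCPP (-0.65 ± 0.11, adjusted p = 0.00011).

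Lss closes squalene epoxide to lanosterol, the first sterol of the route (chr10:76531588-76557138, plus strand). It had 37.7, 23.9 and 37.4 CPM in Au_TCPP, 126, 124 and 126 CPM in Cu_TCPP and 84.9, 81.8 and 85.3 CPM in Control. The 3 groups did not overlap. Lss rose 1.49-fold with Cu_TCPP against Control (0.58 ± 0.12, adjusted p = 0.0019) and fell 2.55-fold with Au_TCPP against Control (-1.35 ± 0.13, adjusted p = 3.6e-07). The difference between the materials, 3.80-fold lower in Au_TCPP than in Cu_TCPP (-1.93 ± 0.13, adjusted p = 1.2e-08), was the largest in log2 terms among the 27 genes in the 3 comparisons. Without Au_TCPP replicate 2 it was -1.78 (adjusted p = 6.5e-14).

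**Figure D3:**
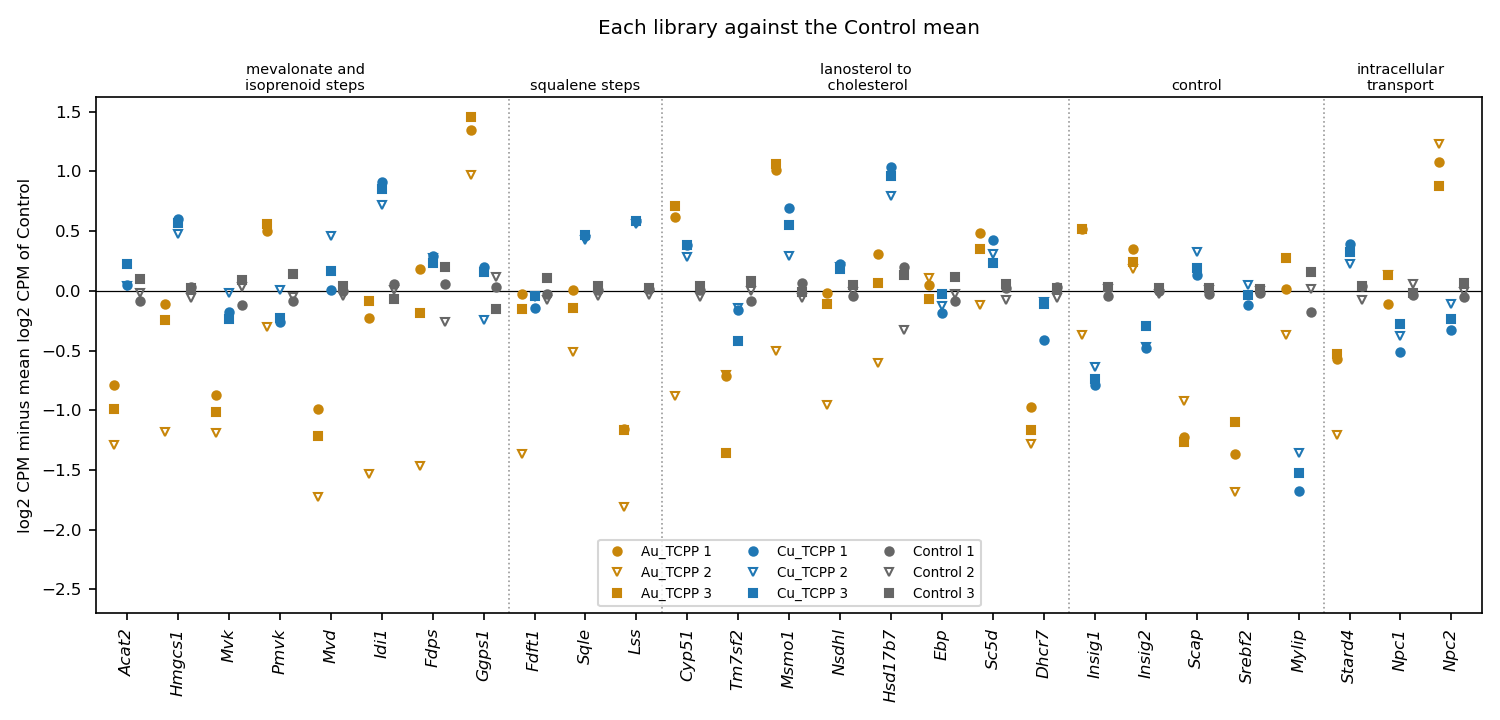
Log2 CPM of each library minus the mean log2 CPM of Control for the 27 tested sterol genes, with Au_TCPP left, Cu_TCPP in the middle and Control right for each gene. Open triangles are replicate 2 of each group, and those of Au_TCPP lie lowest of their group for 22 of the 27 genes.

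From lanosterol onward, Cyp51, Msmo1, Nsdhl and Hsd17b7 strip off methyl groups. Cyp51, the lanosterol demethylase (chr5:4081145-4104746, minus strand), had 217, 76.4 and 230.4 CPM in Au_TCPP, 184, 172 and 184 CPM in Cu_TCPP and 142, 136 and 145 CPM in Control. In Au_TCPP, replicates 1 and 3 were above all Control libraries and replicate 2 was below them all. Cyp51 was called in no comparison, with 0.35 ± 0.35, adjusted p = 0.46 for Cu_TCPP against Control. Msmo1, the methylsterol oxidase whose printed window holds 3 NF-Y boxes (chr8:64718139-64733792, minus strand), had 338, 118 and 349.5 CPM in Au_TCPP, 269, 204.5 and 245 CPM in Cu_TCPP and 175, 160.3 and 166 CPM in Control. It showed the same split in Au_TCPP, and its Cu_TCPP libraries all lay above Control. The log2 fold changes of Msmo1 were 0.68 ± 0.36, adjusted p = 0.12 for Au_TCPP against Control and 0.52 ± 0.36, adjusted p = 0.29 for Cu_TCPP against Control.

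Hsd17b7 is a ketosterol reductase of the same demethylation complex that can also reduce estrone. It had 29.02, 15.4 and 24.5 CPM in Au_TCPP, 48.1, 40.7 and 45.7 CPM in Cu_TCPP and 26.98, 18.6 and 25.7 CPM in Control. The Cu_TCPP libraries lay above all others, and those of Au_TCPP and Control overlapped. Hsd17b7 rose 1.89-fold with Cu_TCPP against Control (0.92 ± 0.19, adjusted p = 0.0019), the largest rise of the 27 genes there, and it was lower in Au_TCPP than in Cu_TCPP (-0.96 ± 0.19, adjusted p = 0.00063). Nsdhl, the sterol dehydrogenase of that complex, had 38.2, 19.9 and 35.7 CPM in Au_TCPP, 45.2, 44.3 and 43.8 CPM in Cu_TCPP and 37.5, 38.4 and 39.9 CPM in Control, and only Au_TCPP against Cu_TCPP was called (-0.51 ± 0.17, adjusted p = 0.018). Sc5d, a sterol desaturase, had 88.1, 57.9 and 80.4 CPM in Au_TCPP, 84.5, 78.2 and 74.1 CPM in Cu_TCPP and 63.9, 59.65 and 65.55 CPM in Control. It rose with Cu_TCPP against Control (0.32 ± 0.12, adjusted p = 0.047), a call lost when any 1 Cu_TCPP or Control library was left out and in 9 of 19 alternatives in all.

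The remaining late enzymes reduce or isomerize double bonds. Dhcr7, which makes cholesterol in the last step of one branch (chr7:143823145-143848410, plus strand), had 14.8, 11.9 and 12.9 CPM in Au_TCPP, 21.8, 27.25 and 26.9 CPM in Cu_TCPP and 29.75, 27.96 and 29.6 CPM in Control. All Au_TCPP libraries lay below the others, and Dhcr7 fell 2.20-fold against Control (-1.14 ± 0.12, adjusted p = 8.3e-07) and 1.92-fold against Cu_TCPP (-0.94 ± 0.12, adjusted p = 7e-06). Tm7sf2 had 8.28, 8.29 and 5.28 CPM in Au_TCPP, 12.1, 12.3 and 10.15 CPM in Cu_TCPP and 12.8, 13.5 and 14.4 CPM in Control. It fell with Au_TCPP against Control (-0.89 ± 0.17, adjusted p = 0.00025) and was lower than with Cu_TCPP (-0.66 ± 0.17, adjusted p = 0.0032), although 12.1% of its exonic bases overlap Vps51 on the same strand. That share is for the GENCODE gene of 4403 exonic bases, which differs in coordinates from the counted Tm7sf2 gene of 5593 bases. Ebp, the sterol isomerase, had 39.5, 41.2 and 36.4 CPM in Au_TCPP, 33.6, 34.9 and 37.5 CPM in Cu_TCPP and 35.9, 37.4 and 41.4 CPM in Control. Its groups overlapped in every comparison and none was called, with 0.03 ± 0.09, adjusted p = 0.78 for Au_TCPP against Control. With library totals alone that value turned to -0.39.

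Among the control genes, Srebf2 (chr15:82147181-82205379, plus strand) had 154, 124 and 186 CPM in Au_TCPP, 367, 413 and 389.9 CPM in Cu_TCPP and 393, 399 and 404 CPM in Control. The Au_TCPP libraries lay below all others by a wide margin, and those of Cu_TCPP and Control overlapped. Srebf2 fell 2.58-fold with Au_TCPP against Control (-1.37 ± 0.12, adjusted p = 1.6e-07) and 2.52-fold against Cu_TCPP (-1.33 ± 0.12, adjusted p = 2.2e-07). Scap, the escort of SREBP2 (chr9:110333288-110384950, plus strand), had 38.4, 47.3 and 37.2 CPM in Au_TCPP, 98.3, 112 and 102 CPM in Cu_TCPP and 87.9, 90.04 and 91.2 CPM in Control. It fell 2.19-fold with Au_TCPP against Control (-1.13 ± 0.10, adjusted p = 1.1e-07) and 2.54-fold against Cu_TCPP (-1.35 ± 0.10, adjusted p = 2.1e-08). Unlike most of the enzymes, Scap was highest in replicate 2 within Au_TCPP. The exonic bases of Scap overlap a gene with few counts, 5830462I19Rik, on the opposite strand over 13.2%, and smaller overlaps of this kind are found for Npc1 with Rmc1 (4.5%) and Cyp51 with Akap9 (3.8%). For Npc1 that share is for a GENCODE gene of 11317 exonic bases, which differs in coordinates from the counted gene of 10725 bases.

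Both Insig genes fell with Cu_TCPP and were higher in Au_TCPP than in Cu_TCPP. Insig1 (chr5:28071363-28078662, plus strand) had 295, 159.9 and 296 CPM in Au_TCPP, 119, 132.5 and 123 CPM in Cu_TCPP and 199.9, 208 and 211 CPM in Control. All Cu_TCPP libraries lay below Control, and Au_TCPP replicates 1 and 3 lay above it while replicate 2 lay below. Insig1 fell 1.65-fold with Cu_TCPP against Control (-0.72 ± 0.18, adjusted p = 0.0069), and it was 2.001-fold higher in Au_TCPP than in Cu_TCPP (1.00 ± 0.18, adjusted p = 0.00033). Insig2, which in liver responds to insulin rather than to SREBP2, had 85.5, 76.4 and 79.3 CPM in Au_TCPP, 48.1, 48.5 and 54.7 CPM in Cu_TCPP and 67.0, 65.9 and 68.3 CPM in Control. Its 3 groups did not overlap, with Au_TCPP above Control and Cu_TCPP below. Insig2 fell with Cu_TCPP against Control (-0.41 ± 0.08, adjusted p = 0.0012) and was higher in Au_TCPP than in Cu_TCPP (0.67 ± 0.08, adjusted p = 4.7e-06). It rose with Au_TCPP against Control (0.26 ± 0.08, adjusted p = 0.011), but with library totals alone that value was -0.16, and the call was lost without Au_TCPP replicate 1 or Control replicate 1 or 2 and with no filter on low counts.

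Mylip, the ubiquitin ligase that limits lipoprotein uptake (chr13:45389742-45412022, plus strand), had 14.3, 10.98 and 17.2 CPM in Au_TCPP, 4.42, 5.51 and 4.91 CPM in Cu_TCPP and 12.5, 14.3 and 15.8 CPM in Control. Every Cu_TCPP library lay below every library of the other groups, and those of Au_TCPP and Control overlapped. Mylip fell 2.87-fold with Cu_TCPP against Control (-1.52 ± 0.17, adjusted p = 1.5e-05), the largest change of the 27 genes in that comparison in either direction, and it was 2.85-fold higher in Au_TCPP than in Cu_TCPP (1.51 ± 0.18, adjusted p = 3e-06). The other LXR targets on the list, Abca1 and Abcg1, gave almost no counts. Abca1 had 3 counts in Control replicate 1 and 0 in the other 8 libraries, and Abcg1 had 1, 1 and 3 counts in Au_TCPP and 0 elsewhere. A count of 0 allows a level of up to 0.159 to 0.236 CPM in these libraries (3 counts, counting error only), so no change in the exporters was detectable at this depth.

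Of the transport genes, Stard4 encodes a soluble protein that moves cholesterol between membranes. It had 65.95, 42.3 and 67.8 CPM in Au_TCPP, 128, 114 and 122.5 CPM in Cu_TCPP and 101, 92.7 and 100.4 CPM in Control. The Au_TCPP libraries lay below Control and the Cu_TCPP libraries above it. Stard4 fell with Au_TCPP against Control (-0.74 ± 0.14, adjusted p = 0.00027) and was lower than with Cu_TCPP (-1.05 ± 0.14, adjusted p = 1.2e-05), while Cu_TCPP against Control was not called (0.31 ± 0.13, adjusted p = 0.078). Npc1 and Npc2 together hand lipoprotein cholesterol from the lysosome to the cell. Npc2 (chr12:84754562-84773152, minus strand) had 986, 1091 and 853 CPM in Au_TCPP, 369.8, 432 and 396.5 CPM in Cu_TCPP and 449, 462 and 487 CPM in Control. It rose 2.097-fold with Au_TCPP against Control (1.07 ± 0.10, adjusted p = 2.9e-07) and 2.44-fold against Cu_TCPP (1.29 ± 0.10, adjusted p = 4.8e-08), with every Au_TCPP library above all others. Npc1 had 38.05, 45.1 and 45.0 CPM in Au_TCPP, 28.9, 31.7 and 33.85 CPM in Cu_TCPP and 40.2, 42.7 and 40.5 CPM in Control. The Cu_TCPP libraries lay below all others, and Npc1 fell with Cu_TCPP against Control (-0.39 ± 0.10, adjusted p = 0.0053) and was higher in Au_TCPP than in Cu_TCPP (0.44 ± 0.10, adjusted p = 0.001), a call that library totals alone did not give. The summed macrophage markers, almost wholly Cd68 and Cd14, were lowest in Cu_TCPP and highest in Au_TCPP, at the levels given above. Npc2 had the same order of groups, while the Au_TCPP and Control libraries overlapped for Npc1 and for Mylip. For Cu_TCPP against Control this rested on Cd68 (-1.26 ± 0.15, adjusted p = 2.4e-05), since Cd14, the other marker tested, was not called (-0.06 ± 0.12, adjusted p = 0.69). Both were higher in Au_TCPP than in Control. Their part in the values of Npc1, Npc2 and Mylip was not tested.

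Within Au_TCPP the synthesis genes were not alike in the 3 libraries. Replicate 2 was the lowest of the 3 for 22 of the 27 genes (81.5%), against 40.7% of all genes tested. The 5 genes with another order were Tm7sf2, Ebp, Scap, Npc1 and Npc2, and replicate 2 was the highest for each of them. The median of replicate 2 minus the mean of replicates 1 and 3 was -0.54 on the log2 scale over the 27 genes and -0.0025 over all genes. Replicates 1 and 3 lay close together, with a median absolute difference of 0.13 over the 27 genes and 0.17 over all. The range over the 3 libraries reached at least 1 log2 unit in 6 of the 27 genes (22.2%), against 13.8% of all genes. These were Hmgcs1, Idi1, Fdps, Fdft1, Cyp51 and Msmo1, which are all synthesis enzymes. No gene of the 27 had such a range in Cu_TCPP or Control, where 1037 and 797 of all 13915 genes tested had it. The median range of the 27 genes was 0.65 in Au_TCPP, 0.19 in Cu_TCPP and 0.12 in Control. Over all genes tested the median ranges were 0.40 in Au_TCPP, 0.24 in Cu_TCPP and 0.17 in Control.

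Against the mean of Control, the median log2 level of the 27 genes was -0.01, -0.88 and -0.11 in the Au_TCPP libraries and 0.05, 0.05 and 0.17 in the Cu_TCPP libraries. Over all genes tested the same medians lay between -0.027 and -0.0027 in these 6 libraries. In Au_TCPP replicate 2, 22 of the 27 genes lay below the Control range and 4 above it, against 45.2% and 44.4% of all genes tested. In replicate 1 these counts were 12 and 9, against 46% and 44.5% of all genes, and in replicate 3 they were 14 and 10, against 46.4% and 44.1%. Pmvk, Cyp51, Msmo1, Sc5d and Insig1 lay above all Control libraries in replicates 1 and 3 and below them all in replicate 2. That is 5 of 27 genes (18.5%), against 2.33% of all genes, by a criterion chosen after the values were seen. The high share of mitochondrial counts belonged to the same library (2.37%, against 1.11 and 1.23% in replicates 1 and 3), and its part in these values was not tested.

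**Figure D4:**
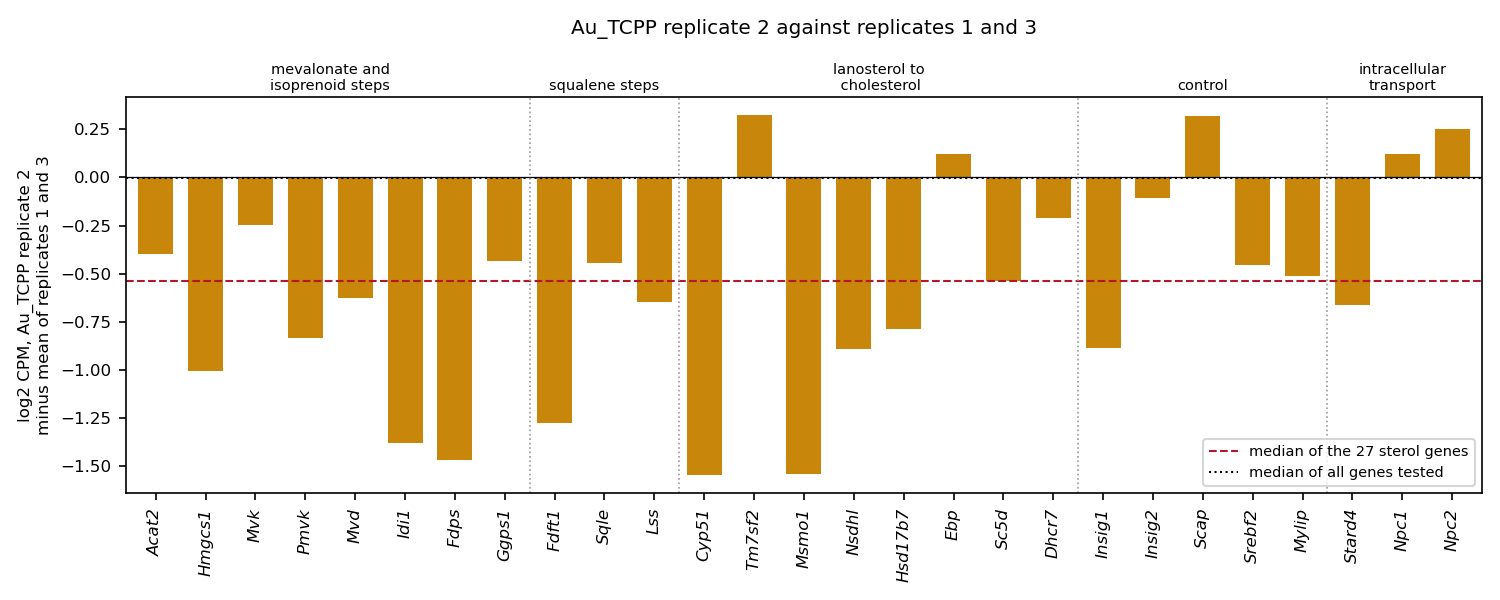
Log2 CPM of Au_TCPP replicate 2 minus the mean of replicates 1 and 3 for the 27 tested sterol genes, 1 bar per gene. The dashed line marks their median of -0.54 and the dotted line the median of all genes tested, -0.0025, and 5 genes have bars above 0.

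Without Au_TCPP replicate 2, the comparison of Au_TCPP with Control gave other calls for the genes that this library set apart. Msmo1 then rose by a log2 fold change of 1.02 ± 0.09 (adjusted p = 3.1e-09) and Cyp51 by 0.64 ± 0.07 (adjusted p = 8.5e-08). Pmvk (0.51 ± 0.10, adjusted p = 0.00011), Insig1 (0.49 ± 0.07, adjusted p = 2.5e-06) and Sc5d (0.39 ± 0.08, adjusted p = 2e-04) rose as well, and Hmgcs1 fell (-0.20 ± 0.07, adjusted p = 0.02). The falls of Srebf2, Scap, Lss and Mvd did not rest on this library. Without it Srebf2 was at -1.25 ± 0.08 (adjusted p = 5e-11), Scap at -1.27 ± 0.08 (adjusted p = 2.5e-11), Lss at -1.19 ± 0.08 (adjusted p = 2.2e-11) and Mvd at -1.12 ± 0.13 (adjusted p = 1.4e-07). Ggps1 stayed higher at 1.38 ± 0.11 (adjusted p = 1.4e-09) and Npc2 at 0.96 ± 0.08 (adjusted p = 8.4e-10). Against Cu_TCPP, Cyp51 and Msmo1 were then higher in Au_TCPP, at 0.28 ± 0.07 (adjusted p = 0.0017) and 0.48 ± 0.09 (adjusted p = 7.6e-05).

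The same omission brought 7 more genes past the threshold for Cu_TCPP against Control, and the fit of 6 libraries alone gave the same 7. Hmgcs1, Cyp51, Msmo1, Nsdhl, Scap and Stard4 rose and Npc2 fell. The shares of all genes called were larger too in the fit of 6 libraries, as given above. The gain of 7 is therefore not read as particular to the sterol genes. In the fit of 6 libraries, Msmo1 was at 0.53 ± 0.08 (adjusted p = 8.3e-05), Cyp51 at 0.36 ± 0.05 (adjusted p = 5.2e-05) and Stard4 at 0.32 ± 0.06 (adjusted p = 0.00042). Scap was at 0.22 ± 0.06 (adjusted p = 0.0056), Nsdhl at 0.21 ± 0.07 (adjusted p = 0.013) and Npc2 at -0.22 ± 0.06 (adjusted p = 0.0069). The fold change of Msmo1 in the fit of all 9 libraries was 0.52 with a standard error of 0.36, so its size was alike and its error larger there.

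Other genes of sterol handling outside the 29 were described from a list of 27, of which 25 were tested. Of these, 5 rose and 14 fell with Au_TCPP against Control (20% and 56%, against 34.4% and 34.7% of all genes). With Cu_TCPP against Control 8 rose and 6 fell (32% and 24%, against 19.2% and 21.2%). In Au_TCPP 5 were higher and 14 lower than in Cu_TCPP (20% and 56%, against 34.6% and 31.3%). Mbtps1 encodes the Golgi protease that makes the first cut in SREBP2. It had 46.8, 42.55 and 41.1 CPM in Au_TCPP, 178, 187 and 190.2 CPM in Cu_TCPP and 233.5, 226 and 237 CPM in Control, and it fell 5.34-fold with Au_TCPP against Control (-2.42 ± 0.09, adjusted p = 2.7e-11). Mbtps2, which makes the next cut, had 38.7, 35.2 and 39.96 CPM in Au_TCPP, 83.7, 77.2 and 83.2 CPM in Cu_TCPP and 73.7, 72.2 and 68.6 CPM in Control and fell as well (-0.91 ± 0.08, adjusted p = 1.9e-07). For both protease genes, as for Srebf2 and Scap, all libraries of Au_TCPP lay below the others. Tmem97, an SREBP2 target whose product binds Npc1, had 74.15, 66.7 and 75.4 CPM in Au_TCPP, 101.5, 98.4 and 105 CPM in Cu_TCPP and 50.6, 49.25 and 46.99 CPM in Control. It rose 2.08-fold with Cu_TCPP against Control (1.05 ± 0.08, adjusted p = 4.4e-07) and also rose with Au_TCPP (0.56 ± 0.08, adjusted p = 2.1e-05), a call lost with library totals alone (0.13, adjusted p = 0.11). Pgrmc1, a haem protein that binds cytochromes of the pathway, had 206.5, 236 and 209 CPM in Au_TCPP, 85.1, 86.4 and 90.7 CPM in Cu_TCPP and 72.4, 74.7 and 72.2 CPM in Control and rose 2.97-fold with Au_TCPP against Control (1.57 ± 0.08, adjusted p = 9.4e-10). Lipa, the lysosomal lipase that frees cholesterol from lipoprotein, had 13.2, 21.7 and 13.1 CPM in Au_TCPP, 15.6, 14.3 and 14.2 CPM in Cu_TCPP and 26.7, 29.85 and 30.45 CPM in Control and fell with Cu_TCPP (-0.98 ± 0.16, adjusted p = 0.00026) and with Au_TCPP (-0.86 ± 0.16, adjusted p = 0.00027) against Control. Replicate 2 of Au_TCPP was the lowest of its group for 9 of the 25 genes (36%), against 40.7% of all genes.

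The isoprenoid branch was described from 15 genes of prenylation, ubiquinone and dolichol synthesis, all tested. With Au_TCPP against Control 6 rose and 5 fell (40% and 33.3%, against 34.4% and 34.7% of all genes). With Cu_TCPP against Control 5 rose (33.3%, against 19.2% of all genes) and 0 fell by edgeR, against 21.2%. In Au_TCPP 3 were higher and 5 lower than in Cu_TCPP (20% and 33.3%, against 34.6% and 31.3%). At an unadjusted p under 0.05, 1 of the 15 was lower with Cu_TCPP by edgeR, and DESeq2 and limma called 0 lower. The edgeR fit of the 6 libraries compared called 1 lower, as did library totals and the fit without Au_TCPP replicate 2. Rabggtb, a subunit of the enzyme that geranylgeranylates Rab proteins with the product of Ggps1, had 340.2, 279 and 361 CPM in Au_TCPP, 92.04, 90.45 and 98.2 CPM in Cu_TCPP and 86.2, 89.7 and 83.7 CPM in Control. Like Ggps1, it had every Au_TCPP library above all others, and it rose 3.77-fold against Control (1.92 ± 0.10, adjusted p = 9.2e-10). Pdss1, which builds the side chain of ubiquinone, had 14.3, 15.5 and 16.2 CPM in Au_TCPP, 18.8, 17.3 and 18.6 CPM in Cu_TCPP and 9.21, 9.91 and 9.53 CPM in Control and rose with Cu_TCPP (0.93 ± 0.11, adjusted p = 2.3e-05) and with Au_TCPP (0.68 ± 0.12, adjusted p = 9.8e-05) against Control. With library totals alone the rise with Au_TCPP was not called (0.26, adjusted p = 0.07). Coq2 attaches that chain to the ring, and it fell with Au_TCPP against Control (-0.70 ± 0.09, adjusted p = 8.7e-06).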

How the data were processed

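Polyadenylated RNA of 4T1 cells was sequenced in 9 libraries, 3 per group, grouped by their titles. Bowtie 0.12.9, Cufflinks 2.1.1, HTSeq and the build mm10 are named in the submitters' processing notes, and the sources used here do not state whether counting was stranded. The values tested are unscaled read counts for each gene, as the authors deposited them, per the file headers. FPKM, scaled by the authors for length and depth, served in an alternative, per the file headers. The authors also deposited group means, a log2 fold change and p-values for each comparison, per the file headers, from a test that the sources used here do not state, and none of these was used. Totals lay between 15477324 and 17494776 counts. Counting intervals and floors cover counting error only.

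The 29 genes and the other lists were chosen with earlier results of these data known. Of the other sterol handling list, 1 gene is not reported here. All 29 are named, grouped by role. From each other list, the genes named are some of the up to 4 called genes of smallest p per comparison. Srebf1, Por, Nr1h2, Rce1 and Nus1 also met that rule, and their values are not given in the text. Counts of all genes were fitted with edgeR 4.0.16 in R 4.3.3 (TMM factors, filterByExpr, robust quasi-likelihood fit of 9 libraries with a mean per group), with Benjamini-Hochberg adjustment over 13915 genes. The biological coefficient of variation was 10.6%. Standard errors are the absolute log2 fold change divided by the square root of F. Log2 CPM used a prior count of 0.5. Alternatives were RLE factors, library totals, no filter or 1 CPM in 3 libraries, DESeq2 1.42.0, limma 3.58.1 on log2 FPKM with pseudocounts of 1 or 0.1, only the 6 libraries compared, a replicate block, offsets for gene length (splines with 5 degrees of freedom), a log2 fold change of at least 1, and leaving out each library. The fit was tested on simulated data. Promoter windows are RefSeq's, on GRCm38.p6, and overlaps use GENCODE annotation of GRCm38. Tables and figures used Python 3.11.15, numpy 2.4.6, pandas 2.3.3 and matplotlib 3.10.9.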

Additional observations from a re-analysis of the deposited data

How the results depend on the processing

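Of the 27 sterol genes tested, the number that kept direction and call under all 19 alternatives that give a fold change was 11 in Au_TCPP against Control, 19 in Au_TCPP against Cu_TCPP and 14 in Cu_TCPP against Control. For Cu_TCPP against Control, the 6 libraries alone called 16 genes, 11 of them higher, limma on log2 FPKM + 0.1 called 3 higher, and length offsets called 8 higher with a median of 0.23, where 27.5% of all genes rose and 16.7% fell. Leaving out 1 library gave 7 to 16 called genes, 3 to 11 of them higher, with 3 higher without any 1 Cu_TCPP or Control library and 11 without Au_TCPP replicate 2. For Au_TCPP against Control, library totals called 21, of which 19 were lower, length offsets called 5 higher, and leaving out 1 library gave 2 to 8 higher, with 8 without Au_TCPP replicate 2. The median of the 27 genes there ran from -0.50 without Au_TCPP replicate 1 to -0.09 without Au_TCPP replicate 2, and for Au_TCPP against Cu_TCPP from -0.80 to -0.30 without the same libraries. A log2 fold change of at least 1 left 1 called gene for Cu_TCPP against Control, with 0 higher and 1 lower, and 11 for Au_TCPP against Cu_TCPP, with 4 higher and 7 lower; beside that 0, edgeR without the fold limit called 5 higher. The cause of these differences was not tested, apart from the fold limit itself. A count that stands here without the share of all genes is not read as particular to the sterol genes.

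Library totals moved the median of all genes to -0.43 in Au_TCPP against Control, -0.33 in Au_TCPP against Cu_TCPP and -0.06 in Cu_TCPP against Control, and with them 20.3% of all genes were higher and 46.9% lower in Au_TCPP than in Cu_TCPP. Of the sterol genes and the 8 others with values in the text, signs turned with library totals for Au_TCPP against Control in Ebp (-0.39), Insig2 (-0.16), Npc1 (-0.37), Cyp51 (-0.14), Insig1 (-0.16), Pmvk (-0.13) and Sc5d (-0.17). They also turned there for Au_TCPP against Cu_TCPP in Ebp (-0.22), Msmo1 (-0.24) and Lipa (-0.24) and for Cu_TCPP against Control in Ggps1 (-0.0027). Of these, Insig2 alone was called with TMM factors, and Ebp and Npc1 were called lower with library totals for Au_TCPP against Control. With length offsets Npc1 was instead called higher in that comparison (0.49). Length offsets turned Ebp (-0.11), Hsd17b7 (0.13) and Sqle (0.013) for Au_TCPP against Control, Ebp (-0.12), Lipa (-0.050) and Sc5d (0.0039) for Au_TCPP against Cu_TCPP, and Ebp (0.012), Fdft1 (0.020) and Srebf2 (0.0625) for Cu_TCPP against Control. Srebf2 in the last comparison was at 0.0038 by DESeq2 and 0.0023 by limma with either pseudocount, Msmo1 for Au_TCPP against Cu_TCPP at -0.023 and -0.028 by limma with pseudocounts of 1 and 0.1, and Ebp for Au_TCPP against Control at -0.020 without a filter. Leaving out 1 library turned signs too, over ranges of -0.052 to 0.061 for Ebp, -0.28 to 0.15 for Hsd17b7, -0.20 to 0.12 for Mylip and -0.0175 to 0.11 for Npc1 in Au_TCPP against Control. In Au_TCPP against Cu_TCPP the ranges were -0.34 to 0.28 for Cyp51, -0.12 to 0.48 for Msmo1, -0.23 to 0.058 for Sc5d and -0.196 to 0.21 for Lipa, with Cyp51 and Msmo1 called higher without Au_TCPP replicate 2. In Cu_TCPP against Control they were -0.026 to 0.19 for Ggps1 and -0.061 to 0.0203 for Srebf2. Cyp51 for Au_TCPP against Cu_TCPP was lowest with library totals, at -0.44. The number of the 27 genes with a range of at least 1 log2 unit in Au_TCPP was 5 with library totals and 7 with length offsets, beside 6 with TMM factors. The shares of all genes under the 5 and the 7 are not given here.

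Same-numbered libraries had correlations of deviations between -0.083 and 0.076, and different-numbered ones between -0.068 and 0.081. The same-numbered values were all positive for Cu_TCPP against Control and of mixed sign in the other comparisons. With 3 libraries per group these values cannot settle whether the replicate numbers pair the samples. With the replicate block 11 genes were called for Cu_TCPP against Control (7 higher, 4 lower), 13 in Au_TCPP against Control (3 higher, 10 lower) and 21 in Au_TCPP against Cu_TCPP (6 higher, 15 lower). The shares of all genes with the block are not given here, so these counts are not read as particular to the sterol genes. Depth limits Abca1 and Abcg1, which had at most 3 counts in any library.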

Other observations

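Across the 27 sterol genes, which are not independent replicates, the difference of Au_TCPP replicate 2 from the mean of replicates 1 and 3 had a Spearman correlation of -0.546 (Pearson -0.393) with the log2 fold change of Cu_TCPP against Control. Over all 13915 genes tested the same values were -0.227 and -0.215. The measures come from different libraries and share the gene lengths, the scaling factors and the platform. The 6 genes lowest in replicate 2 relative to replicates 1 and 3 were Cyp51, Msmo1, Fdps, Idi1, Fdft1 and Hmgcs1, and Fdft1 alone of them had a negative value for Cu_TCPP against Control (-0.08). Hsd17b7, with the highest value there (0.92), stood at -0.79 in replicate 2. Over the 15 isoprenoid branch genes the Spearman correlation was 0.593 (Pearson 0.463). For the 25 tested genes of other sterol handling it was -0.091 (Pearson -0.152).

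Sterol genes outside the 29 differed in spread from the members. The median range over the 3 Au_TCPP libraries was 0.26 log2 units for the 25 tested genes of other sterol handling and 0.25 for the 15 isoprenoid branch genes, against 0.65 for the 27 members and 0.40 for all genes tested. A range of at least 1 unit was reached by 2 of 25 (8%) and 0 of 15 genes, against 13.8% of all genes. Of the 25, replicate 2 was the highest Au_TCPP library for 13 (52%) and the lowest for 9 (36%), against 38% and 40.7% of all genes.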
